A study of Mus musculus with 16 samples.

Results

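The actins and alpha-actinins were followed here as 9 genes (Acta1, Actc1, Acta2, Actb, Actg1, Actn1, Actn2, Actn3 and Actn4) of the 21923 genes in the count table, chosen by gene symbol in the gastrocnemius of each mouse. The choice was also made with the low Actc1 level of the cachectic mice already known, so that the cachectic (CAC) against normal (NOR) values are given as a description, with no p and nothing read from whether a gene passed a limit. All 9 symbols were present and all 9 genes passed the filter on low counts in every comparison. The 16 libraries held poly(A) RNA from 4 groups of 4 tumor-bearing or normal mice aged 6–8 weeks at the start. NOR mice carried no tumor and received PBS. CAC mice carried a subcutaneous tumor in the right flank from day 0 and received PBS, and AM mice carried the same tumor and received amiloride intraperitoneally at 2 mg/kg daily from day 9. KD mice carried a tumor grown from cells with a Rab27 knockdown and received PBS, and muscle was taken on day 30. Replicates 1 and 2 of each group were C57BL/6 mice, with Lewis lung carcinoma (LLC) cells in the tumor groups, and replicates 3 and 4 were BALB/c mice, with CT26 colon carcinoma cells, so strain and tumor line cannot be told apart in the tumor groups.

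Actins are the monomers of the thin filament of the sarcomere and of the cytoskeleton. Skeletal alpha-actin (Acta1) is the thin-filament actin of adult skeletal muscle, cardiac alpha-actin (Actc1) is that of the heart and of developing skeletal muscle, and smooth muscle alpha-actin (Acta2) belongs to vessel walls and myofibroblasts. Beta-actin (Actb) and gamma-actin (Actg1) are the cytoplasmic forms found in nearly every cell. Alpha-actinins cross-link actin filaments: Actn2 and Actn3 anchor thin filaments of opposite polarity in the Z-disc, Actn3 mainly in fast glycolytic fibers, while Actn1 and Actn4 serve stress fibers and adhesions in non-muscle cells.

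The libraries held 35913190–61032708 counts, of which the 9 genes made up 2.61–6.18%. The summed level of 8 skeletal muscle markers, among them Ckm and Mylpf, was 64580–172600 CPM (library-scaled counts, by edgeR's trimmed mean of M-values) in every library. A pair of libraries stood apart. In CAC replicate 3 the 10 most abundant genes took 13.9% of the counts, against 17.0–25.5% in the other 15 libraries. KD replicate 3 had 0 counts over 4 Y-linked genes, whereas the other 15 libraries had 4558–8438. The labels give both sexes for the BALB/c mice and male for the C57BL/6 mice. The main Actc1, Acta1 and Actn1 results on CAC and KD are therefore also given without these libraries. Nothing in the labels ties libraries to separate cages or days, and in bulk muscle fewer cells of a type and less RNA per cell cannot be told apart.

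The 9 genes all lie on the minus strand of GRCm38 and are protein coding. Acta1 spans chr8:123891769-123894751, Actc1 chr2:114047282-114053548, Acta2 chr19:34241090-34255590, Actb chr5:142903115-142906754 and Actg1 chr11:120345690-120348542. Actn1 spans chr12:80167547-80260371, Actn2 chr13:12269426-12340760, Actn3 chr19:4861216-4877909 and Actn4 chr7:28893248-28962340. Related genes can share reads, so the 31-base words of each member's transcripts were matched against those of all other genes. Of the Actg1 words, 40.2% (1132 of 2813) also occurred in another gene's transcripts, mostly those of Gm12715, and of the Actb words 23.6% (667 of 2821), so the counts of both cytoplasmic actins are the least certain. Only 0.756% of the Actc1 words and 4.11% of the Acta1 words were shared, and Acta1 and Actc1 shared 0 words with each other, so their counts could be kept apart.

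The promoters of the 2 striated muscle actins and of Actg1 are shown because they alone, among the 7 members matched in the RefSeq promoter table (GRCm38.p6; Actb and Actn3 had no entry), held an exact match to the consensus CArG box, the element bound by serum response factor. Elements that depart from the consensus, such as those known in the Acta2 promoter, were not searched. Each line runs 5′ to 3′ from 250 bases before to 50 after the annotated start, on the minus strand, with the CArG box and the TATAAA motif in capitals. The windows are chr8:123894726-123895025 for Acta1, chr2:114052826-114053125 for Actc1 and chr11:120348446-120348745 for Actg1.
Actc1: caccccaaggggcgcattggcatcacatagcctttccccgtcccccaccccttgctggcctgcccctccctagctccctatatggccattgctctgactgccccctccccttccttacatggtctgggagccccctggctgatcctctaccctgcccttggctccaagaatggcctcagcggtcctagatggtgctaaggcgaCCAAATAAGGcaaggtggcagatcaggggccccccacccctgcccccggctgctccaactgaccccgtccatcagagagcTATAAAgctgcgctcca
Acta1: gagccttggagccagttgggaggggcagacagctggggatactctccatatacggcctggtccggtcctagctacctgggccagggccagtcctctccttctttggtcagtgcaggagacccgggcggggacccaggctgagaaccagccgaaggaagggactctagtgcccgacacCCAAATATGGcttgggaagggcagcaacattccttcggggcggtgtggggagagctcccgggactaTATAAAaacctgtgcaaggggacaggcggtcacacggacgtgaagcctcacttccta
Actg1: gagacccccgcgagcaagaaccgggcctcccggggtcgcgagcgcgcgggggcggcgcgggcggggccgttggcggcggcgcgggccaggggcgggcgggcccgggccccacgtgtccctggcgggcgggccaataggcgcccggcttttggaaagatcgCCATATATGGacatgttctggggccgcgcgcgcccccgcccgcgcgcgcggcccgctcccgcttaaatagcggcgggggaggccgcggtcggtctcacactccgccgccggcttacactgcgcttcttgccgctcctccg
The CArG box began at position -47 from the annotated start in Actc1, -73 in Acta1 and -90 in Actg1. The exact match was present in 3 of the 7 matched members and in 1.63% of the 32841 promoters of the table, both strands searched. The TATAAA motif was found in Actc1 and Acta1, and in 13.6% of all promoters. The match in Actc1 lay 33 bases after the annotated start, and that in Acta1 began at position -7. The Actc1 window lies wholly inside the Actc1 span given above, so the annotations used for spans and for promoters place its start differently. The positions hold only for the annotated starts of the promoter windows. These matches are descriptions of sequence, and binding was not measured.

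Levels were compared between genes only per length, as FPKM, fragments per kilobase of transcript scaled to the library's total. Averaged over the 16 libraries, Acta1 was the highest of all genes in the table at 35160 FPKM. Actn3 followed among the members at 3187 FPKM, then Actb at 605.0, Actn2 at 504, Actc1 at 481, Actg1 at 289, Actn4 at 118, Acta2 at 114 and Actn1 at 21.1 FPKM. From Actb to Actg1, and between Actn4 and Acta2, neighbors in this order overlapped across libraries, whereas the other steps did not. Actc1 held this place in no single group, with a mean of 771 FPKM in NOR, above Actb at 611, and of 20.2 FPKM in CAC, below Actn1 at 26.2. The members differed widely in how much they varied. The highest library exceeded the lowest 229-fold in Actc1, 4.48-fold in Acta1, 3.75-fold in Actn3 and only 1.42-fold in Actn4, on the CPM scale.

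Actc1 was the member that varied most. Its level in NOR gastrocnemius was 1511, 447.5, 537 and 464 CPM in replicates 1 to 4. In CAC gastrocnemius it was 27.2, 30.7, 6.58 and 6.825 CPM, so that the highest CAC library was below every NOR library. In AM gastrocnemius it was 37.8, 344, 107 and 1368 CPM, and in KD gastrocnemius it was 482, 64.7, 698 and 956 CPM. All 4 AM and all 4 KD libraries lay above all 4 CAC libraries, but AM replicate 1 and KD replicate 2 lay close to them. The group mean was 740.0 ± 515 CPM in NOR and 17.8 ± 12.9 CPM in CAC, against 464 ± 617 CPM with amiloride and 550.2 ± 377 CPM with the knockdown tumor (SD, n = 4 each). The CAC mean was thus 0.0241 times the NOR mean, a log2 fold change of -5.38 ± 0.75 (SE), of -5.07 ± 0.74 without CAC replicate 3 and of -4.76 without NOR replicate 1, the highest of the normal mice.

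Acta1, the most abundant member, moved far less. Its level was 57830, 38190, 39790 and 36580 CPM in NOR and 30260, 32120, 12920 and 26020 CPM in CAC. Every CAC library was below every NOR library, and CAC replicate 3 was the lowest of all 16. In AM gastrocnemius the level was 33280, 40840, 36180 and 44270 CPM, and in KD gastrocnemius it was 33400, 47970, 45200 and 35100 CPM, in each case above all 4 CAC libraries. The means were 43100 ± 9910 CPM for NOR and 25330 ± 8657 CPM for CAC, against 38650 ± 4876 CPM for AM and 40420 ± 7245 CPM for KD (SD, n = 4 each). The CAC mean was 0.588 times the NOR mean (log2 fold change -0.77 ± 0.33, and -0.53 ± 0.20 without CAC replicate 3). Markers of fast fibers were at 56960–117500 CPM in CAC and 103100–153400 CPM in NOR, summed over 9 genes, with 1 of the 9 called lower, and their part in the Acta1 difference was not tested.

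**Figure D1:**
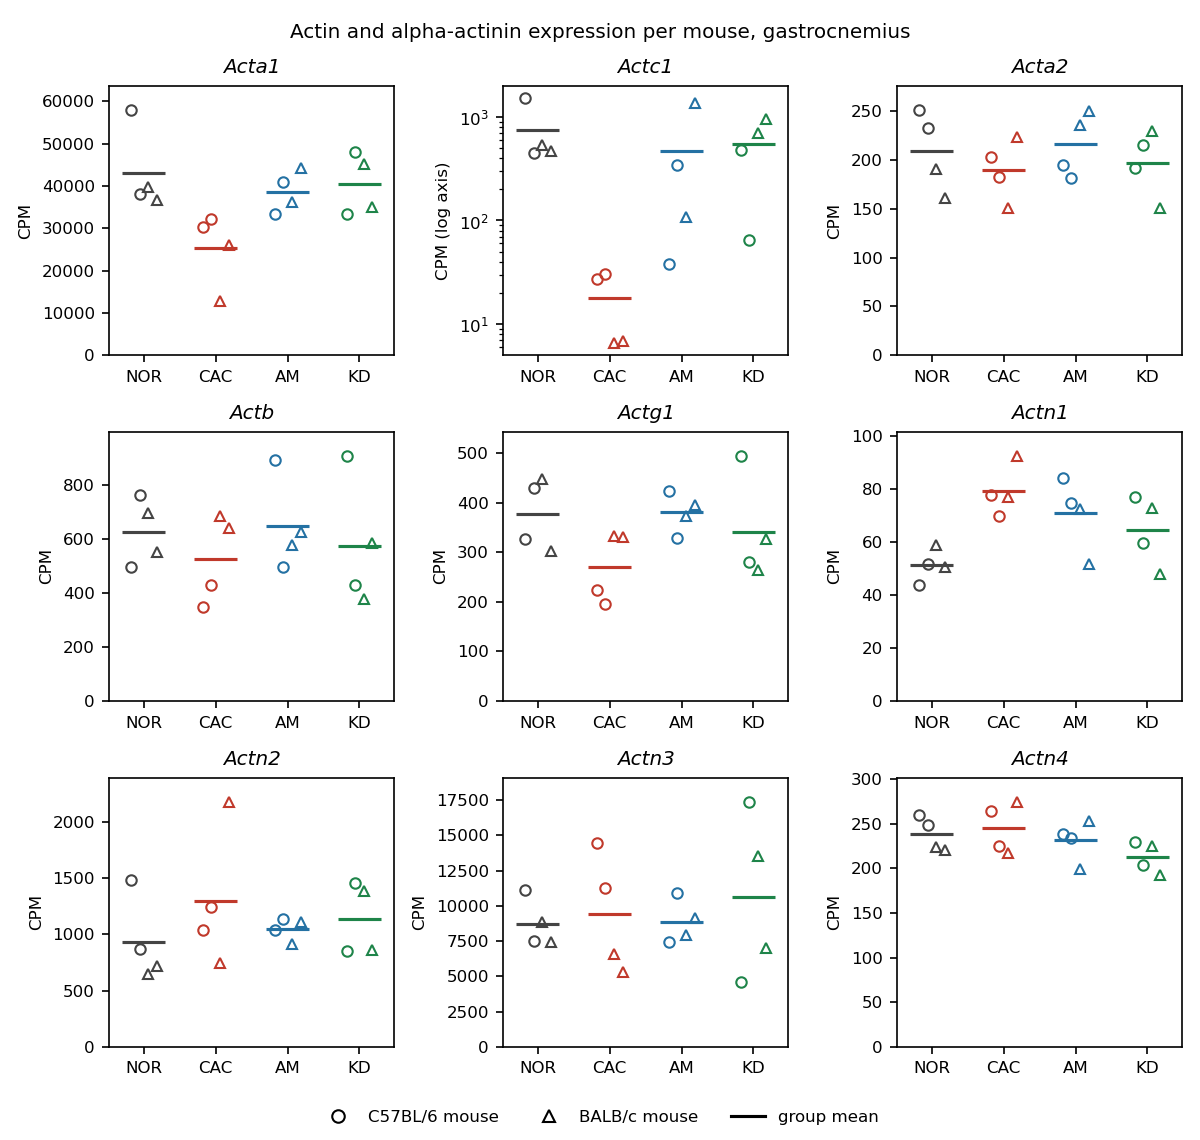
Level of each of the 9 actin and alpha-actinin genes in each library, as CPM on linear axes from 0, except for Actc1, which has a log axis. Circles are C57BL/6 and triangles BALB/c mice of NOR, CAC, AM and KD, and lines are group means. Actc1 lies at 6.58–30.7 CPM in CAC and at 37.8 CPM or more in every other library, while Actn4 stays between 193 and 274 CPM throughout.

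Because both alpha-actins build the same filament, the Actc1 share of the summed FPKM of Actc1 and Acta1 was computed in each mouse. It was 2.94, 1.34, 1.54 and 1.45% in NOR and 0.104, 0.111, 0.0591 and 0.0304% in CAC. In AM mice the share was 0.132, 0.969, 0.342 and 3.46%, and in KD mice 1.65, 0.156, 1.76 and 3.06%. The mean share was 1.82 ± 0.753% for NOR and 0.0761 ± 0.0381% for CAC, against 1.23 ± 1.53% for AM and 1.66 ± 1.19% for KD (SD, n = 4 each). Actc1 was thus a minor part of the alpha-actin mRNA in every mouse. The share was 1.15 percentage points higher in AM than in CAC and 1.58 points higher in KD than in CAC, each with p = 0.0286 in a two-sided exact permutation test, the smallest value 4 against 4 mice can give. With labels permuted within strain only, the exact p was 0.0556 for each, again the smallest possible. Leaving out CAC replicate 3, or any other CAC mouse, gave an exact permutation p of 0.171 for AM and 0.0571 for KD, and leaving out AM replicate 4 cut the AM difference to 0.405 points (exact p = 0.0286). Both tests reuse the CAC libraries whose low Actc1 chose the list. AM and KD, which share no library with that contrast, differed by -0.431 points (exact permutation p = 0.629).

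Among the alpha-actinins of the Z-disc, Actn3 made up most of the summed FPKM of Actn3 and Actn2. Its share was 87.9 ± 2.68% for NOR and 82.6 ± 12% for CAC, against 86.3 ± 1.45% for AM and 86.1 ± 4.16% for KD (SD, n = 4 each). CAC replicate 4, at 64.8%, set the width of the CAC group. The exact permutation p was 0.914 for AM against CAC, 0.829 for KD against CAC and 0.943 for AM against KD. For the cytoplasmic actins, the Actg1 share of Actg1 plus Actb was 33.5 ± 2.04% for NOR and 30.4 ± 3.19% for CAC, against 33.4 ± 3.37% for AM and 33.8 ± 2.66% for KD (SD, n = 4 each). The exact permutation p was 0.286, 0.143 and 0.914 for the same comparisons, and neither share passed a test. The widest of these differences in the Actg1 share, KD against CAC, was 3.398 points.

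**Figure D2:**
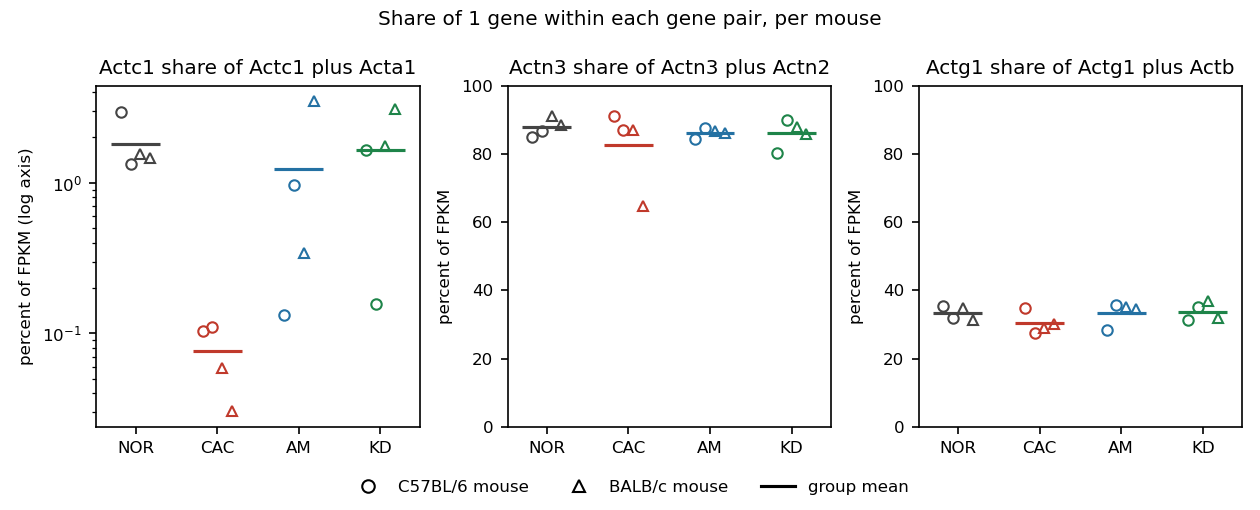
Share of the summed FPKM taken by Actc1 (of Actc1 plus Acta1), Actn3 (of Actn3 plus Actn2) and Actg1 (of Actg1 plus Actb), in percent, on a log axis for Actc1 and on axes from 0 for the others. Circles are C57BL/6 and triangles BALB/c mice, and lines are group means. The Actc1 share is at most 0.111% in CAC and at least 0.132% in all other mice, whereas the other shares overlap between groups.

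The smooth muscle and cytoplasmic actins overlapped between groups. Acta2 was at 251, 233, 191 and 161.5 CPM in NOR and at 203, 183, 151 and 223 CPM in CAC, and at 182–251 CPM in AM and 150.5–230.0 CPM in KD. Smooth muscle markers, 9 genes including Myh11 and Tagln, summed to 1112–1475 CPM in NOR and 872–1479 CPM in CAC. Of the 9 markers 2 were called lower in CAC than in NOR, Smtn (-0.93 on the log2 scale) and Cspg4 (-0.66), and their part in the Acta2 values was not tested. Actb was at 498, 763, 698 and 553 CPM in NOR and at 349, 429, 684 and 642 CPM in CAC, with 497–892 CPM under amiloride and 380–907 CPM in KD. Actg1 was at 326, 429, 448 and 302 CPM in NOR and at 224, 195, 334 and 332 CPM in CAC. In AM gastrocnemius Actg1 was at 423, 329, 374 and 395 CPM, and in KD gastrocnemius at 493, 279, 265 and 327 CPM. For both cytoplasmic actins the lowest CAC values were those of the C57BL/6 mice.

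The sarcomeric alpha-actinins were as variable within groups as between them. Actn2 was at 1483, 868, 643 and 718 CPM in NOR and at 1036, 1245, 741.5 and 2173 CPM in CAC, with 911–1138 CPM under amiloride and 851–1453 CPM in KD. Actn3 was at 11100, 7528, 8831 and 7440 CPM in NOR and at 14450, 11240, 6550 and 5314 CPM in CAC. In AM gastrocnemius Actn3 was at 7403, 10890, 7940 and 9106 CPM, and in KD gastrocnemius at 4631, 17360, 13560 and 7013 CPM. The C57BL/6 mice of CAC thus had the higher Actn3 and the BALB/c mice the lower, on either side of the NOR range of 7440–11100 CPM. The means of Actn3 were 8726 ± 1708 CPM for NOR and 9389 ± 4231 CPM for CAC, against 8834 ± 1542 CPM for AM and 10640 ± 5857 CPM for KD (SD, n = 4 each).

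The non-muscle alpha-actinins differed from each other. Actn1 was at 43.7, 51.7, 59.0 and 50.7 CPM in NOR and at 77.9, 70.1, 77.2 and 92.5 CPM in CAC, so that each CAC library was above each NOR library. In AM gastrocnemius Actn1 was at 84.4, 75.0, 72.5 and 51.9 CPM and in KD gastrocnemius at 77.2, 59.8, 73.0 and 47.9 CPM, and both groups overlapped with NOR and with CAC. The CAC mean was 1.55 times the NOR mean (log2 fold change 0.63 ± 0.12, and 0.66 ± 0.14 without CAC replicate 3), and Actn1 was no longer called without NOR replicate 1 or without CAC replicate 4. Of 6 endothelial markers, 2 were called higher in CAC than in NOR and 0 lower, with summed levels of 1255–1641 CPM in CAC and 931–1481 CPM in NOR, and their part in the Actn1 values was not tested. Actn4, the least variable member, ranged over 220–260.1 CPM in NOR and 217–274 CPM in CAC, against 199.5–253 CPM for AM and 193–230 CPM for KD.

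Each pair of groups was compared across all genes with edgeR's quasi-likelihood test. A gene was called when its Benjamini-Hochberg adjusted p was at most 0.05 and its fold change was at least 1.5 in either direction. Between CAC and NOR, the contrast by which the genes were chosen, 2 of the 9 members lay past these limits (Actc1 lower and Actn1 higher), beside 9.45% of the 14666 genes tested, and with DESeq2 3 did, Acta1 being the other. Of all genes 4.32% were called higher and 5.13% lower, and scaling by total counts alone turned the 633 higher and 753 lower calls into 959 and 619. Acta1, Actc1 and Actn1 did not overlap between CAC and NOR, beside 22.8% of all genes. The other log2 fold changes ranged from -0.48 ± 0.22 for Actg1 to 0.48 ± 0.38 for Actn2. Since the choice of genes used this contrast, nothing is read from these counts.

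The question of whether amiloride altered these genes was addressed by AM against CAC, which shares the CAC libraries with the contrast that chose the list. Of the 9 members 0 were called, beside 3.66% of the 14674 genes tested (537 genes, and 212 to 447 with 1 mouse left out). Actc1 in AM was 26.1 times the CAC mean, with a log2 fold change of 4.72 ± 1.19, and missed the limit with an unadjusted p of 0.00364 and an adjusted p of 0.0588 in edgeR's test. The adjusted p was 0.000446 with DESeq2, whose calls covered 7.63% of all genes, and 0.0466 in edgeR's fit over all 16 libraries, whose calls covered 1.52%. Leaving out CAC replicate 3 gave 4.43 ± 1.32, and leaving out AM replicate 4, which held the highest AM level, gave 3.19. Acta1 in AM was 1.53 times the CAC mean (0.61 ± 0.31, edgeR's adjusted p = 0.293, and 0.39 ± 0.17 with adjusted p = 0.234 without CAC replicate 3). Actc1 and Acta1 were the members whose AM and CAC libraries did not overlap, both higher in AM, beside 6.08% of all genes higher without overlap and 15.7% apart in either direction. An exact permutation test over the 8 mice gave p = 0.0286 for each of them, the smallest it can give. Fast fiber markers lay on the same side as Acta1, with 8 of 9 positive and a median log2 fold change of 0.49 in AM against CAC (9 of 9 and 0.624 in KD against CAC), 0 called in either, and their part in the Acta1 values was not tested.

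The other 7 members did not pass in AM against CAC. Actg1 had a log2 fold change of 0.49 ± 0.19 with an adjusted p of 0.182, and its groups overlapped only through AM replicate 2. Acta2 and Actb had log2 fold changes of 0.19 and 0.31, with adjusted p of 0.526 and 0.56. Actn1, Actn2, Actn3 and Actn4 had log2 fold changes of -0.16, -0.30, -0.08 and -0.08, with adjusted p from 0.607 to 0.915 in edgeR's test. At an unadjusted p under 0.05, 2 of the 9 members (Actc1 and Actg1) and 21.7% of all genes passed.

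In the comparison of KD with CAC, which asks what a tumor with less Rab27 does to these genes and which again reuses the CAC libraries whose low Actc1 chose the list, 0 of 9 members were called, beside 0.00685% of the 14593 genes tested. Actc1 in KD was 30.9 times the CAC mean, with a log2 fold change of 4.94 ± 0.93, an unadjusted p of 0.000561 and an adjusted p of 0.231 in edgeR's test. Without KD replicate 3 the log2 fold change was 4.83 ± 0.99 (adjusted p = 0.398), and without CAC replicate 3 it was 4.69 ± 1.00 (adjusted p = 0.455). DESeq2 gave Actc1 an adjusted p of 6.12e-06, with 2.33% of all genes called, and edgeR's fit over all 16 libraries gave 0.0484, with 0.953% called. Acta1 in KD was 1.60 times the CAC mean (0.67 ± 0.35, edgeR's adjusted p = 0.536), with 0.63 ± 0.41 (adjusted p = 0.688) without KD replicate 3 and 0.47 ± 0.24 (adjusted p = 0.706) without CAC replicate 3. Both alpha-actins lay above CAC in all 4 KD libraries, beside 3.63% of all genes (7.00% in either direction), each with an exact permutation p of 0.0286. For Actc1 part of any difference from CAC is fixed by that choice. Of the others, Actn1 had a log2 fold change of -0.30 ± 0.17 with an adjusted p of 0.563, which was -0.35 without KD replicate 3 and -0.29 without CAC replicate 3. An unadjusted p under 0.05 was reached by 1 of the 9 members, Actc1, and by 11.1% of all genes.

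Against NOR, the AM and KD groups overlapped with the normal mice in all 9 members, beside 4.71% and 2.16% of all genes whose groups did not overlap. Both comparisons reuse the NOR libraries of the contrast that chose the list. Actc1 had a log2 fold change of -0.66 ± 0.95 in AM against NOR (edgeR's adjusted p = 0.854) and of -0.40 ± 0.71 in KD against NOR (adjusted p = 0.999, and -0.52 without KD replicate 3). Actn1 had a log2 fold change of 0.48 ± 0.16 in AM against NOR, with an unadjusted p of 0.0161 and an adjusted p of 0.527, and of 0.34 in KD against NOR. No gene of the table was called by edgeR in either comparison (0% of 14738 and 0% of 14748), while 9.19% and 3.54% reached an unadjusted p under 0.05 and DESeq2 called 70 and 31 genes (0.475% and 0.21%). AM and KD, the comparison that shares no library with CAC or NOR, overlapped in all 9 members, beside 0.929% of genes that did not. Actc1 there had a log2 fold change of -0.24 ± 1.07 and Acta1 of -0.06 ± 0.23 (-0.13 and -0.02 without KD replicate 3). The other 7 members lay between -0.26 and 0.17, and 0% of 14745 genes were called by edgeR, 1.11% at an unadjusted p under 0.05, and 1 gene (0.00678%) by DESeq2.

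**Figure D3:**
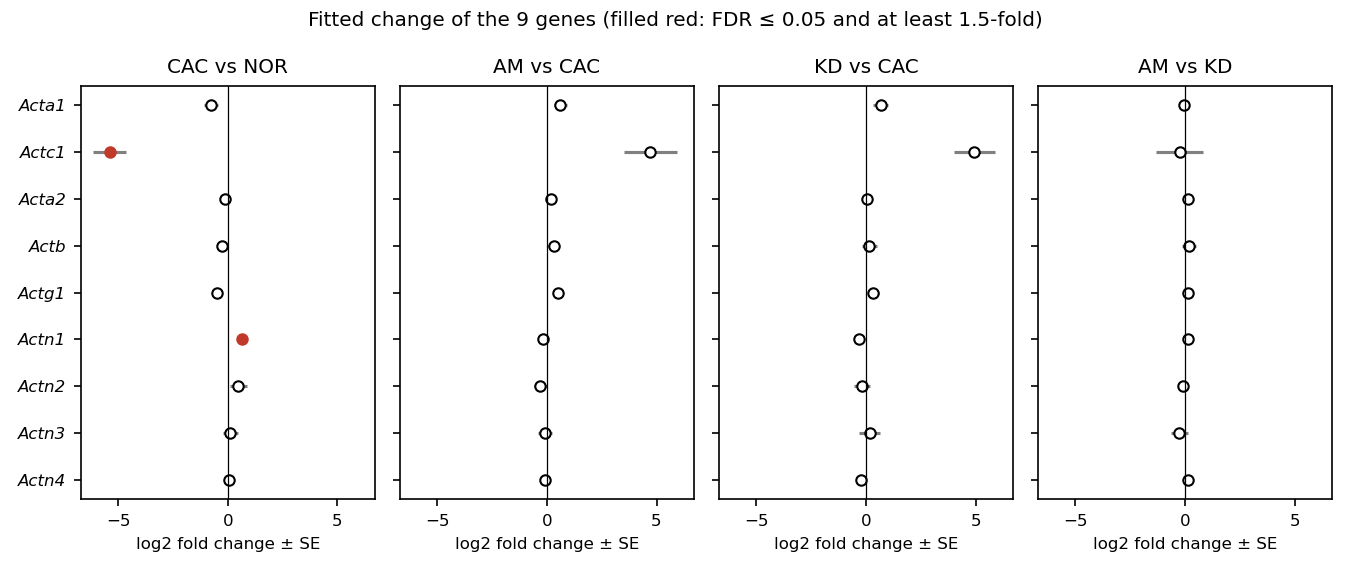
Log2 fold change of each member in CAC against NOR, AM against CAC, KD against CAC and AM against KD, with bars for the standard error of edgeR's fit and filled red symbols for genes called at an adjusted p of 0.05 and a fold change of 1.5. Actc1 stands at -5.38 in CAC against NOR and at 4.72 and 4.94 in AM and KD against CAC, and the filled symbols are Actc1 and Actn1 in CAC against NOR.

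Each group held 2 mice of either strain, and the members were also set out by strain. Across groups, with group as a term in the fit over all 16 libraries, 0 of 9 members were called between BALB/c and C57BL/6, beside 0% of 15652 genes. An unadjusted p under 0.05 was reached by 1.77% of these genes, and DESeq2 called 1 gene (0.00639%). The widest strain difference was that of Actn3, -0.39 ± 0.27 on the log2 scale. Among the 4 NOR mice alone, 0 of 9 members were called, beside 0.00670% of 14935 genes, and Acta2 was the 1 member with an unadjusted p under 0.05 (5.11% of all genes). DESeq2 called 0.917% of genes there and 0 members.

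Actc1 was higher in AM and in KD than in CAC within each strain, but by different amounts. As the difference of mean log2 CPM of 2 against 2 mice, it was 1.98 for AM and 2.61 for KD in C57BL/6 and 5.83 and 6.92 in BALB/c mice. Fitted by edgeR to each strain alone, on the scale of the other fold changes, it was 2.73 for AM and 3.28 for KD in C57BL/6 and 6.78 and 6.94 in BALB/c mice. The strain-by-group term was 4.08 ± 1.83 for AM against CAC (adjusted p = 0.445) and 3.68 ± 1.16 for KD against CAC (unadjusted p = 0.0177, adjusted p = 0.866) in edgeR's test. Both terms reuse the CAC libraries whose low Actc1 chose the list, so part of the Actc1 differences is fixed by that choice. The AM term was 1.25 without AM replicate 4. With DESeq2 the KD term had an adjusted p of 0.0495, beside 0.734% of genes called, and for AM it called 2.99% of genes and 0 members. No gene was called by edgeR in either interaction test (0%), and 11.8% and 5.57% of genes had an unadjusted p under 0.05. Acta1 was likewise higher in both strains, in mean log2 CPM by 0.24 and 1.13 for AM and by 0.36 and 1.12 for KD in C57BL/6 and BALB/c.

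Actb and Actn3 pointed in opposite directions in the 2 strains, and Actg1 did so for KD but not for AM. For AM against CAC the difference of mean log2 CPM of Actb was 0.78 in C57BL/6 and -0.14 in BALB/c mice, and for KD against CAC it was 0.69 and -0.49. Actg1 had 0.84 and 0.21 for AM and 0.83 and -0.18 for KD. Actn3 was at -0.51 in C57BL/6 and 0.53 in BALB/c mice for AM, and at -0.51 and 0.72 for KD. The C57BL/6 mice of KD, at 4631 and 17360 CPM, lay on either side of those of CAC at 14450 and 11240 CPM. Fitted by edgeR to C57BL/6 alone, the KD difference of Actn3 was -0.21 ± 0.70. At an unadjusted p under 0.05, 3 of the 9 members (Actb, Actg1 and Actn3) had a strain-by-group term in AM against CAC, beside 11.8% of all genes. In KD against CAC 1 of 9 (Actc1) did, beside 5.57%. After adjustment 0 passed in edgeR's test, with adjusted p of 0.419, 0.402 and 0.385 for Actb, Actg1 and Actn3 in AM against CAC and of 0.866 and 0.884 for Actb and Actn3 in KD against CAC. Mean log2 CPM of Actn1 was 0.64 and 0.63 higher in CAC than in NOR in the 2 strains.

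**Figure D4:**
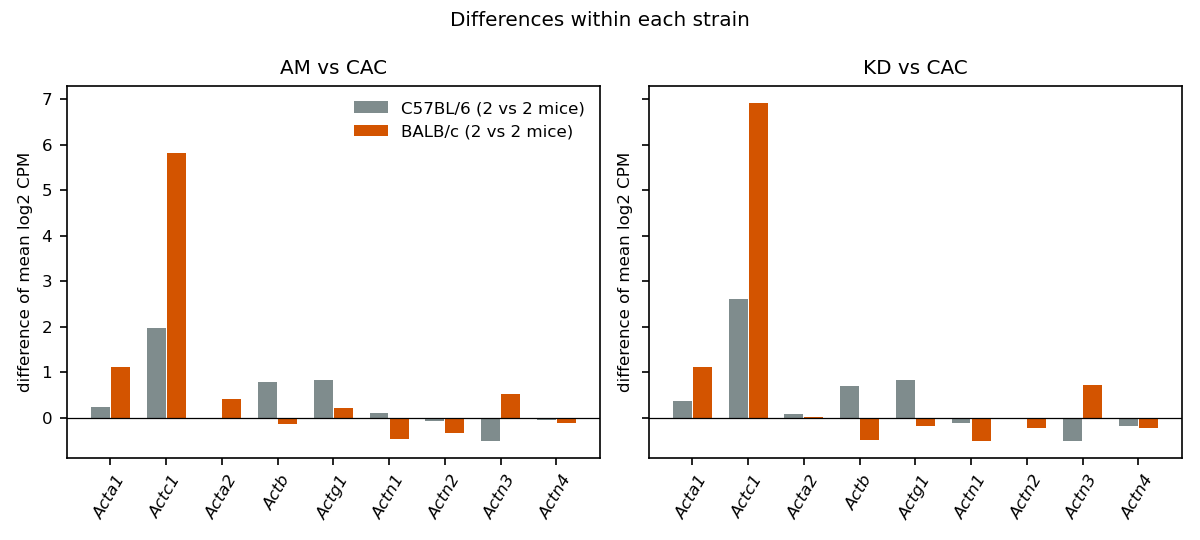
Difference of the group means of log2 CPM for each member within the C57BL/6 mice and within the BALB/c mice (bars, 2 against 2 mice each), for AM against CAC and KD against CAC. Actc1 is above 0 in both strains (1.98 and 5.83 for AM), while Actb and Actn3 differ in sign between the strains in both comparisons.

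Genes that work with the members were taken from 6 lists. Of 10 genes that set the length and ends of the thin filament, 2 were called higher and 1 lower in CAC against NOR. Of all genes 4.32% and 5.13% were called higher and lower there. In AM against CAC 0 of the 10 were called higher and 2 lower, where 1.63% of all genes were called higher and 2.03% lower (239 and 298 genes, but 279 and 232 with upper-quartile scaling and 640 and 479 with DESeq2). The median log2 fold change was -0.215 and then 0.129, beside 0.0118 and 0.00723 over all genes. Nrap, which helps assemble myofibrils, averaged 1479 ± 384 CPM for NOR and 2981 ± 171 CPM for CAC, against 1497 ± 85.7 CPM for AM and 1621 ± 731 CPM for KD (SD, n = 4 each), and fell by 0.99 on the log2 scale in AM against CAC (edgeR's adjusted p = 0.00826). Lmod2, a nucleator at the pointed end of the thin filament, was at 160.1 ± 36.7, 380 ± 95.2, 135 ± 23.5 and 276 ± 175 CPM in the same groups and fell by 1.49 (adjusted p = 0.00937). Neb (nebulin), which runs along the thin filament, had log2 fold changes of -0.06 and 0.19. Lmod3 was called lower in CAC against NOR (-0.68 ± 0.14).

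Of 18 partners of alpha-actinin, 1 was called higher and 2 lower in CAC against NOR, and 1 higher and 2 lower in AM against CAC, with medians of 0.278 and -0.0516. Over all genes 4.32% and 5.13% were called higher and lower in CAC against NOR and 1.63% and 2.03% in AM against CAC. Myoz3, a Z-disc protein of fast fibers, averaged 55.1 ± 8.05 CPM for NOR and 10.4 ± 5.86 CPM for CAC, against 44.4 ± 12.9 CPM for AM and 40.7 ± 12.1 CPM for KD, and rose by 2.10 in AM against CAC (edgeR's adjusted p = 0.0371). Flnc (filamin C), at 1058 ± 324, 1954 ± 246, 867 ± 98.2 and 840.1 ± 300.4 CPM, fell by 1.17 (adjusted p = 0.00937). Myot (myotilin) fell by 0.73 (adjusted p = 0.0318). The most abundant partners, Ttn (titin) and Tcap (telethonin), had log2 fold changes of -0.02 and -0.04. The 4 alpha-actinins themselves were not called in AM against CAC.

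The list linked to serum response factor and its MRTF coactivators held 15 symbols, with Mrtfa and Mrtfb as other names of Mkl1 and Mkl2. All 13 genes found under these symbols were tested. Of these, 1 was called higher and 2 lower in CAC against NOR, beside 4.32% and 5.13% of all genes. In AM against CAC 0 were called higher and 2 lower, beside 1.63% and 2.03% of all genes. The medians were -0.38 and 0.308. Ankrd2 and Abra, both responsive to muscle loading, fell in AM against CAC by 1.41 and 1.06 (edgeR's adjusted p = 0.0497 and 0.0376). The tropomyosins Tpm1 and Tpm2, the most abundant of the list, had log2 fold changes of 0.74 (adjusted p = 0.289) and 0.02 (adjusted p = 0.976). Tpm1 averaged 15240 ± 3090 CPM for NOR and 7418 ± 3684 CPM for CAC, against 12380 ± 1927 CPM for AM and 13390 ± 3042 CPM for KD. Egr1 and Mkl1 (an MRTF) were called lower in CAC against NOR, at -2.11 ± 0.19 and -1.44 ± 0.21.

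In 13 genes of actin monomer binding and turnover, 12 tested genes of actin-related proteins and 13 tested genes of actin folding, 0 were called in either comparison. The genes of the folding list, mostly chaperonin subunits and their cofactors, were all on the negative side in AM against CAC (13 of 13, median -0.255). Tcp1 was at -0.33 ± 0.08 (edgeR's adjusted p = 0.0603) and Cct5 at -0.04 ± 0.10 (adjusted p = 0.865). In the turnover list Gsn (gelsolin) had log2 fold changes of -0.71 ± 0.22 in CAC against NOR and 0.45 ± 0.21 in AM against CAC (adjusted p = 0.273), and Tmsb4x (thymosin beta) had 0.05 and -0.12. Of the actin-related proteins Actr1b and Actr1a, both of the dynactin complex, had -0.31 and -0.32 in AM against CAC (adjusted p = 0.194 and 0.118). In KD against CAC 0 genes of the 6 lists were called by edgeR, beside 0.00685% of all genes, so that this count says nothing about them. For the 9 members themselves the median log2 fold change was -0.138 in CAC against NOR, 0.19 in AM against CAC and 0.146 in KD against CAC.

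**Figure D5:**
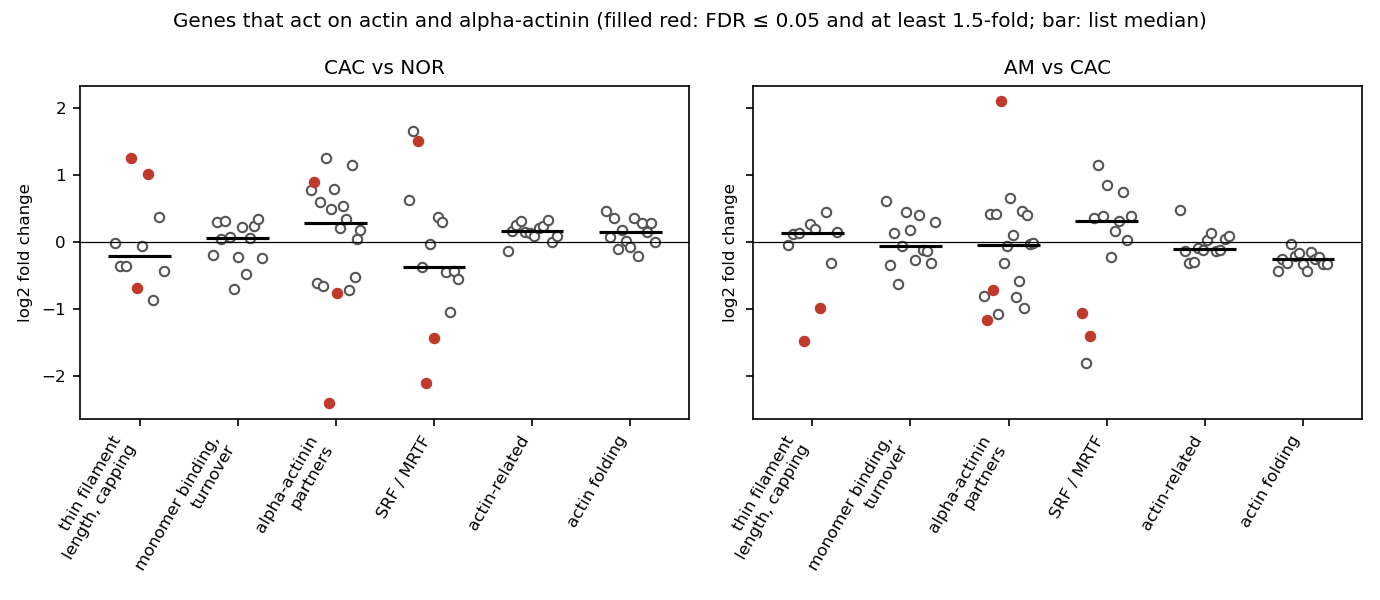
Log2 fold change of each tested gene of the 6 lists in CAC against NOR and in AM against CAC, with a point for each gene, a line for the list median and filled red points for genes called. The folding genes lie below 0 in AM against CAC, 13 of 13, and Nrap and Lmod2 of the thin filament list are filled there, both below 0.

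Markers of other cell types were read beside the members. Fibroblast markers summed to 3065–4210 CPM for NOR and 933.0–1493 CPM for CAC, against 2314–3429 CPM for AM and 905–4159 CPM for KD, with 4 of 7 called lower in CAC against NOR and 4 of 7 called higher in AM against CAC. Tendon markers followed, with 3 of 6 lower and then 3 of 6 higher, at 613–1029, 188–440, 498–783 and 270–689 CPM. Both lists thus moved in the same direction as Actc1 and Acta1 in CAC against NOR and in AM against CAC. In KD this did not hold in every mouse. KD replicates 2 and 3 had fibroblast sums of 1084 and 905 CPM and tendon sums of 270 and 317 CPM. These sums lay within or below the CAC ranges, whereas Acta1 was at 47970 and 45200 CPM and Actc1 at 64.7 and 698 CPM in the same mice. The part of both lists in these results was not tested. Cardiac markers were at 15.5–36.1 CPM for NOR and 20.7–219 CPM for CAC, against 24.0–142 CPM for AM and 23.0–89.9 CPM for KD over 8 genes, with medians of 20.5, 29.7, 73.8 and 59.2 CPM in this order. CAC replicate 4 held the 219 CPM and the other CAC mice had 20.7–35.9 CPM. The list had 1 of 5 tested genes, Tnnt2, called higher in CAC against NOR. Of these genes, Myl7 was at 0 in 15 of 16 libraries, and Nppa, Mybpc3, Tnni3 and Ryr2 were at most at 0.341, 0.171, 0.742 and 1.39 CPM. Myh6 was at 5.99–205 CPM, Myl4 at 4.64–19.1 CPM and Tnnt2 at 2.78–14.4 CPM, each detected in all 16 libraries. The part of these genes in the Actc1 values was not tested. Markers of regenerating fibers, among them Myh3 and Myog, summed to 90.2–151 CPM for NOR and 83.0–134 CPM for CAC, against 79.8–134 CPM for AM and 94.0–185 CPM for KD, with 1 of 8 tested genes, Myog, called higher in CAC and 0 called in AM against CAC.

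Leukocyte markers summed to 25.1–247 CPM for NOR and 94.0–376 CPM for CAC, against 106–398 CPM for AM and 18.8–329 CPM for KD, and adipocyte markers to 701–3345, 735–4766, 1228–4219 and 842–3432 CPM. Of 8 leukocyte markers 2 were called higher in CAC than in NOR, S100a8 (3.97 on the log2 scale) and Itgam (1.23), and 1, Itgam, was called lower in AM than in CAC (-1.13, edgeR's adjusted p = 0.0268). Of 5 adipocyte markers 0 were called in either comparison. Their part in the members' values was not tested. Slow fiber markers summed to 1812, 7829, 5528 and 2636 CPM in KD replicates 1 to 4, against at most 3989 CPM in the other groups. KD replicates 1 and 4 thus lay within the NOR (1598–3989 CPM) and CAC (1310–3734 CPM) ranges, and only replicates 2 and 3 lay above them. Of the 8 markers 0 were called in KD against CAC, where 0.00685% of all genes were. All 8 had a positive log2 fold change in KD against CAC (median 0.767) and in KD against NOR (median 0.889) and a negative one in AM against KD (median -0.746), and their part in the members' values in KD was not tested.

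Across the 16 libraries the members fell into few groups of like pattern, given as Pearson correlations of log2 CPM over all 16 libraries, which are not independent points, since mice of a group share treatment and those of a strain share the tumor line. Actb and Actg1 were the closest pair (r = 0.88), and r was 0.911 after group means were removed. The 2 genes share 106 transcript words, 3.76% of those of Actb, and the part of shared reads in this value was not tested. Actb and Actn3 ran opposite to each other (r = -0.83). Actc1 and Acta1 correlated at 0.739 and, after group means were removed, at 0.384, and Actc1 and Actn1 at -0.733 and -0.548.

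The genes most like each member were taken among 13208 genes with a mean of at least 1 CPM. For Actc1 these were Mdga1 (r = 0.963), Foxo6 (0.953), Fras1 (0.948), Pomk (0.946) and Pde7b (0.944), all at low levels of 2.61–20.5 CPM on average, and by Spearman's rho 0 of the 5 stayed among the 5 most alike. For Acta1 they were Fitm1 (0.957), Rpl3l (0.945), Ldha (0.940), Myoz1 (0.937) and Calm3 (0.936), of which 2 stayed. Among the genes most like Acta2 were Prkar1a (0.929), Tmem246 (0.871), Slc8a2 (0.855) and Dpp8 (0.843). Actb was most like Fam102a (0.948), Pan2 (0.907), Src (0.905), Chd3 (0.902) and Sdf2l1 (0.897), and Actg1 like Src (0.913), Fam102a (0.894), Slc28a2 (0.893), Wdr1 (0.890), an actin disassembly factor, and Actb. Actn1 was most like Rasgef1a (0.950), the endothelial gene Plvap (0.938), Slco2a1 (0.932), Ap2b1 (0.914) and Ehd3 (0.913). Actn2 was most like Camta1 (0.893), Klhl34 (0.888), Clip4 (0.883) and the sarcomere genes Myom3 (0.879) and Myoz2 (0.868), and Actn3 like Eef1d (0.926), Tpbgl (0.917), Trdn (triadin, 0.915), Kif1c (0.915) and Ppp3ca (0.910). Actn4 was most like Mprip (0.821), Cd93 (0.819), Ergic3 (0.801), Wwtr1 (0.772) and Asap2 (0.760). By Spearman's rho 4 of the 5 stayed for Actg1, 3 for Actn1, Actn3 and Actn4, and 2 for Actb and Actn2. With 16 libraries of 4 groups, these values describe shared pattern and carry no test.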

How the data were processed

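The members and gene lists were chosen with earlier results of these data known. Gastrocnemius RNA from 16 mice was sequenced on an Illumina HiSeq2500 after oligo-dT selection. Per the labels, the authors' processing named fastp, Bowtie2, HISAT2 and StringTie 1.3.1 and the builds mm9 and GRCm38, without saying which build gave which values. The authors deposited a count and an FPKM value (fragments per kilobase of transcript, scaled to library size) for each of 21923 genes and each library, and 3719 genes had 0 counts in every library. From the counts, edgeR 4.0.16 in R 4.3.3 gave CPM scaled by the trimmed mean of M-values and quasi-likelihood tests on the 8 libraries of each comparison. Genes were kept by filterByExpr (minimum count 10, minimum total 15), and p-values were adjusted by Benjamini and Hochberg over all genes tested. Log2 CPM for correlations used a prior count of 2. FPKM served for levels between genes and for shares. Gene positions and promoters came from GRCm38 tables, used for the description of sequence only. Alternatives were other scalings and filters, DESeq2 1.42.0, limma 3.58.1 (voom), strain as a term, a replicate block, a fit over all libraries, each strain alone and leaving out each mouse. All 9 members and the 5 genes most like each were named, except for 1 gene that is not reported here, and from each of the 6 pathway lists the 2 most abundant genes and up to 4 called in AM against CAC. Lmod3, Egr1, Mkl1 and the marker genes given by name were named after their values were seen. Scripts were tested on simulated data. Libraries of a group differed by at least 66.6 times counting noise (chi-square per degree of freedom over 24 pairs), so none were duplicates. No per-sample column was left unmapped. P-values measure the spread between these mice.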

Additional observations from a re-analysis of the deposited data

Results flagged for a closer look

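In 48 groups of 4 mice (9 genes and 3 shares in 4 groups), the mouse farthest from the others was compared with Dixon's 95% limit, and 5 groups passed it, where chance alone gives about 1 in 20. NOR replicate 1 accounted for 3 of the 5. It had the highest Acta1 level of the normal mice, 57830 CPM against 36580–39790 CPM in the other three, and the highest Actc1 level, 1511 CPM against 447.5–537 CPM. Its Actc1 share of Actc1 plus Acta1, 2.944%, was likewise above the 1.34–1.54% of the other normal mice. CAC replicate 4 had an Actn3 share of Actn3 plus Actn2 of 64.82%, below the other CAC mice. AM replicate 1 had an Actg1 share of Actg1 plus Actb of 28.44%, below the other AM mice.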

How the results depend on the processing

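Of 445 log2 fold changes refitted under another setting, 411 kept their direction and call. Between CAC and NOR 2 members were called, and 1 with a 2-fold limit or upper-quartile scaling, 3 (with Acta1) with DESeq2 and 0 in either strain alone, where Actc1 stood at -5.02 ± 0.67 in C57BL/6 and -6.23 ± 0.19 in BALB/c mice, and where 0 of 15059 genes were called in BALB/c mice. In AM and in KD against CAC 0 members were called, and 1 (Actc1) with DESeq2 or all 16 libraries in the fit. Over its alternatives the adjusted p of Actc1 ranged from 0.000446 to 0.283 for AM and from 6.12e-06 to 0.993 for KD against CAC. DESeq2 called 1 member (Actc1) in the strain interaction of KD against CAC. Over all genes, AM against CAC gave 537 calls, and 1119 with DESeq2, 231 with all 16 libraries, 339 with strain as a term and 270 with a 2-fold limit; KD against CAC gave 1 call, and 340 and 145. Scaling by total counts moved the median of all genes in CAC against NOR from 0.01 to 0.14 and in KD against CAC to -0.11, and the share of calls that were higher in CAC against NOR from 45.7% to 60.8%. In AM against CAC that share was 44.5%, and 54.6% with upper-quartile scaling, 57.2% with DESeq2 and 58.5% with a 2-fold limit.

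For AM and KD against NOR and AM against KD only the refits of Acta1 and Actc1 are given, so reversals and ranges of the other 7 members there are left out. Reversals of direction were mostly of small differences. In BALB/c mice alone these were CAC against NOR for Acta2 (0.08), Actb (0.08) and Actn3 (-0.46), AM against CAC for Actb (-0.15) and Actn3 (0.51), KD against CAC for Actb (-0.46) and Actg1 (-0.17), AM against NOR for Acta1 (0.06) and Actc1 (0.55), KD against NOR for Acta1 (0.05) and Actc1 (0.71) and AM against KD for Acta1 (0.01). In C57BL/6 mice alone they were CAC against NOR for Actn4 (-0.02), AM against CAC for Acta2 (-0.03) and Actn1 (0.11), and KD against CAC for Actn2 (0.03) and Actn3 (-0.21). Upper-quartile scaling put Actn4 at -0.01 in CAC against NOR, total counts put Acta2 at -0.07 in KD against CAC and Acta1 at 0.01 in AM against KD, and Actn3 in AM against CAC was 0.00 with limma-voom and 0.02 with strain as a term. The Actn3 share on the log2 ratio scale was -0.02 in AM against KD. With labels permuted within strain, the Actc1 share differences of 1.15 and 1.58 points had p = 0.0556, the smallest that exact permutation allows. The cause was not tested for any of these.

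Leaving out each mouse, the calls over all genes ranged from 728 (without NOR replicate 3) to 1272 (without CAC replicate 4) in CAC against NOR, where all 8 mice gave 1386. In AM against CAC they ranged from 212 (without CAC replicate 1) to 447. Leaving out 1 mouse gave 1 to 2 members called between CAC and NOR (Actn1 was lost without NOR replicate 1 or CAC replicate 4). In the strain difference of NOR, leaving out a mouse sets 1 mouse alone against 2 mice and assumes that it varies as they do, so no calls are given there. Ranges that crossed 0 were, for CAC against NOR, Actn3 -0.18 to 0.30 and Actn4 -0.02 to 0.11, and for AM against CAC, Actn2 -0.50 to 0.06 and Actn3 -0.28 to 0.19. For KD against CAC they were Acta2 -0.03 to 0.16, Actb -0.18 to 0.31, Actn2 -0.37 to 0.17 and Actn3 -0.18 to 0.46. Against NOR they were Acta1 -0.21 to 0.01 in AM, and Acta1 -0.17 to 0.07 and Actc1 -0.82 to 0.18 in KD. Between AM and KD they were Acta1 -0.13 to 0.03 and Actc1 -1.75 to 0.17. The Actc1 share difference ranged from 0.405 to 1.52 points for AM and 1.11 to 2.08 for KD against CAC and from -1.18 to 0.0377 for AM against KD. The Actn3 share difference ranged from -2.22 to 6.61, -2.37 to 6.46 and -1.75 to 1.45 points in the same comparisons, and the Actg1 share difference from -1.21 to 1.3 points for AM against KD.

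The labels tie replicate numbers to strain and to no shared animal or day, and not every pair of same-numbered mice deviated together, so the numbers were not treated as pairs. Samples with the same number deviated together (correlation over 0.1) in 3 of 4 pairs for CAC against NOR, 0 of 4 for AM against CAC, KD against CAC and AM against NOR, 1 of 4 for KD against NOR and 2 of 4 for AM against KD. With a replicate block 2 members were called in CAC against NOR and 0 in AM and KD against CAC, where the calls over all genes went from 537 to 0 and from 1 to 0. Actn3 was then at 0.02 in AM against CAC. The Actc1 share differences, 1.15 and 1.58 points, had an exact permutation p = 0.125 with the replicate block, the smallest it allows.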
